A study of Petunia x hybrida with 12 samples.

Results

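Annexins of petunia roots are described here across mycorrhizal and control roots of *ram1* and of the wild type. The genes were chosen by their annotation and by their reads. A gene had to carry the terms for calcium-dependent phospholipid binding and for calcium ion binding, to be described as an annexin, and to average 10 or more total gene reads over the replicates of 1 or more of the 4 groups. Of 32928 gene models, 14 carried both terms, the same 14 that were described as annexins, and 9 of them reached the minimum. Over the whole series, 22954 genes reached it and were tested. Of the 9 genes, 8 passed in all 4 groups and 1, an annexin 8 gene, passed only in the mycorrhizal groups, so a higher level there was in part a condition of its inclusion. The lowest highest-group mean inside the limit was 384.3 reads and the highest one outside it 7.33 reads.

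Annexins are soluble proteins that attach to negatively charged phospholipids of cellular membranes when calcium rises, through a conserved repeat that binds the ion. In plants they are among the common calcium-binding proteins of the cytosol, and they are known for roles in membrane traffic, in calcium-permeable conductances of root cells and in responses to reactive oxygen species, salt and drought. In the root symbioses of legumes, a Medicago annexin is known for its induction by the signal molecules of rhizobia, and a calcium signal in and around the nucleus is part of the recognition of arbuscular mycorrhizal (AM) fungi.

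RNA was sequenced from roots of *Petunia hybrida* in 4 groups with 3 replicates each. These were *ram1-2* mutants inoculated with the AM fungus *Rhizophagus irregularis* MUCL 43204 (*ram1* mycorrhizal), *ram1-2* without the fungus (*ram1* control), wild type W115 with the fungus (wild-type mycorrhizal) and W115 without it (wild-type control), all harvested on day 15. *RAM1* encodes a GRAS transcription factor of the host, and the comparisons ask which transcriptional changes of mycorrhizal roots depend on it. All *ram1* plants carried a single mutant allele, and the labels do not say how close its background is to W115, so that the allele and other differences between the lines cannot be told apart. The study describes the mycorrhizal replicates as separate plants, and gives the controls by their number only. Root colonization was not analysed here.

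The libraries held between 7152267 and 13391147 reads counted in genes, of which *ram1* mycorrhizal replicate 2 had the fewest. *RAM1* itself reached 7.67 ± 1.40 CPM in *ram1* mycorrhizal roots and 117.4 ± 10.2 CPM in wild-type mycorrhizal roots, and at most 0.34 CPM in the control libraries (CPM, counts per 1000000 after scaling of the libraries; SD, n = 3 each). The phosphate transporter gene *PT4* of arbuscule-containing cells had 6.92 ± 3.54 CPM in *ram1* mycorrhizal roots, 4.38 ± 2.14 CPM in *ram1* controls, 606.3 ± 54.2 CPM in wild-type mycorrhizal roots and 13.2 ± 11.3 CPM in wild-type controls. *STR*, *RAM2* and *AMT2* also mark these cells. In the same order of groups, mean CPM were 8.37, 0.079, 208.9 and 0.082 for *STR*. They were 0.546, 0, 287.9 and 0 for *RAM2*, and 0.086, 0.052, 180.1 and 0.082 for *AMT2*. In *ram1*, *STR* and *RAM2* were higher with the fungus (edgeR quasi-likelihood, adjusted p = 0.000473 and 0.0395), and *PT4* and *AMT2* were not called (0.522 and 0.658). The 7 genes for Casparian strip proteins, a mark of the root endodermis, were read in all groups. Their summed level was 139.7 to 187.4 CPM in *ram1* mycorrhizal roots, below the 190.0 to 228.6 CPM in *ram1* controls, and 152.6 to 201.2 CPM in wild-type mycorrhizal roots, overlapping with the 169.3 to 239.4 CPM in wild-type controls. Of the 6 tested, 1 was lower in *ram1* mycorrhizal than in *ram1* control roots, beside 5.17% lower of all genes. In wild-type mycorrhizal against wild-type control roots, 1 was higher and 2 were lower, beside 12.6% higher and 9.14% lower of all genes. The part of the Casparian strip genes in the annexin results was not tested. Of 51 genes for chlorophyll-binding proteins and the small subunit of Rubisco, which mark leaf mesophyll, 34 to 39 had a read in each group. Their summed level was 65.5 to 73.6 CPM in *ram1* mycorrhizal roots, 56.7 to 61.1 CPM in *ram1* controls, 101.3 to 145.1 CPM in wild-type mycorrhizal roots and 63.4 to 83.6 CPM in wild-type controls. The sum was thus higher in the wild-type mycorrhizal libraries, in which several annexins were also higher. Of the 14 leaf genes tested, 4 were higher and 1 was lower there than in wild-type controls, beside the shares of all genes given above. Among those that were higher, a gene for the Rubisco small subunit (Peaxi162Scf00231g01221.1) had 32.0 ± 10.1 CPM in wild-type mycorrhizal roots and 1.54 ± 0.07 CPM in wild-type controls. The gene that was lower, for a light-harvesting chlorophyll-binding protein (Peaxi162Scf00906g00019.1), had 1.53 ± 0.44 CPM in wild-type mycorrhizal roots and 4.17 ± 2.18 CPM in wild-type controls. The part of the leaf genes in the annexin results was not tested.

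The 9 annexins fell under 6 names in the annotation, which pairs each with its most similar Arabidopsis gene. Annexin 1 (Peaxi162Scf00041g01317.1), annexin 2 (Peaxi162Scf00212g00073.1), annexin 3 (Peaxi162Scf00282g00013.1) and annexin 4 (Peaxi162Scf00282g00014.1) each stood for a single gene above the minimum. Annexin 8 was found as 2 genes, on scaffold 108 (Peaxi162Scf00108g00119.1) and on scaffold 471 (Peaxi162Scf00471g01111.1). Annexin 5 was found as 3 genes, on scaffold 252 (Peaxi162Scf00252g00220.1), scaffold 433 (Peaxi162Scf00433g00099.1) and scaffold 458 (Peaxi162Scf00458g00029.1). The annexin 3 and annexin 4 genes bear consecutive numbers on a common scaffold. The coding lengths ranged between 903 bases in annexin 8 of scaffold 108 and 1014 bases in annexin 2, and at least 98.7% of the reads of each gene were unique to it. Reads shared between these paralogs were therefore few.

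Levels of different annexins were compared as RPKM, which divides the reads by the length of the gene model and by the library total. Annexin 1, whose Arabidopsis counterpart is linked to a calcium-permeable conductance that hydroxyl radicals open in root cells, led in 3 of the 4 groups. It reached 669.3 ± 119.1 RPKM in *ram1* mycorrhizal roots, 775.7 ± 49.2 RPKM in *ram1* controls, 388.2 ± 29.1 RPKM in wild-type mycorrhizal roots and 451.4 ± 26.4 RPKM in wild-type controls (SD, n = 3 each). Annexin 2, which in Arabidopsis is known together with annexin 1 for sugar transport to the root tip, came next in these 3 groups, with 291.1 ± 23.3, 363.3 ± 37.8 and 259.7 ± 15.3 RPKM in *ram1* mycorrhizal, *ram1* control and wild-type control roots, and its replicates lay apart from those of annexin 1.

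In wild-type mycorrhizal roots the order at the top was another one. Annexin 2 had 427.8 ± 28.8 RPKM, annexin 4 had 405.3 ± 16.6 RPKM and annexin 1 the 388.2 RPKM given above, and the replicates of neighbours in this order overlapped. Annexin 8 of scaffold 108 followed with 279.0 ± 30.3 RPKM, apart from annexin 1. Annexin 5 of scaffold 458 had 82.9 ± 4.20 RPKM and annexin 3 had 68.4 ± 8.36 RPKM, each apart from its neighbours. The lowest 3 were annexin 5 of scaffold 433 with 43.3 ± 2.54 RPKM, annexin 5 of scaffold 252 with 37.4 ± 3.90 RPKM and annexin 8 of scaffold 471 with 34.3 ± 3.75 RPKM, whose replicates overlapped from one gene to the next.

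In the other groups, a middle tier of annexins lay close together. In *ram1* mycorrhizal roots, annexin 5 of scaffold 458 (68.5 RPKM), annexin 4 (66.1 RPKM), annexin 8 of scaffold 108 (60.0 RPKM) and annexin 5 of scaffold 252 (58.1 RPKM) overlapped with their neighbours in the order. In *ram1* controls, annexin 4 (110.6 RPKM) overlapped with annexin 8 of scaffold 108 (88.2 RPKM), and annexin 5 of scaffold 458 (59.7 RPKM) with that of scaffold 252 (54.8 RPKM). In wild-type controls, annexin 4 (117.7 RPKM), annexin 8 of scaffold 108 (96.9 RPKM) and annexin 5 of scaffold 458 (83.4 RPKM) overlapped. The lowest level was that of annexin 8 of scaffold 471, with 1.45 ± 0.78 RPKM in *ram1* mycorrhizal roots, 0.167 ± 0.083 RPKM in *ram1* controls and 0.486 ± 0.190 RPKM in wild-type controls.

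**Figure D1:**
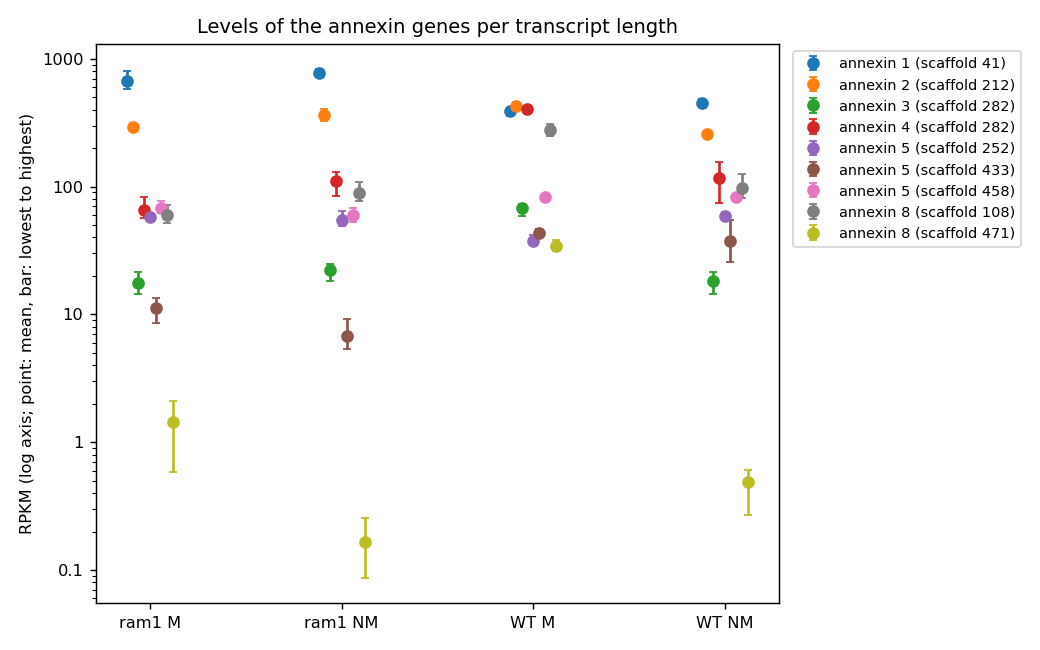
RPKM of the 9 annexins on a log axis in *ram1* mycorrhizal (ram1 M), *ram1* control (ram1 NM), wild-type mycorrhizal (WT M) and wild-type control (WT NM) roots. Points are means of 3 replicates and bars run between the lowest and the highest replicate. Annexin 1 is on top in all groups but WT M, where annexin 2, annexin 4 and annexin 1 lie together, and annexin 8 of scaffold 471 averages 34.3 RPKM in WT M and 1.45 RPKM in ram1 M.

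Annexins together took 1192 ± 131 reads per 1000000 gene reads (RPM) in *ram1* mycorrhizal roots, 1420 ± 47.7 in *ram1* controls, 1686 ± 34.2 in wild-type mycorrhizal roots and 1077 ± 74.8 in wild-type controls (SD, n = 3 each). The wild-type mycorrhizal libraries, with 1663 to 1725 RPM, lay above all other libraries, and the wild-type controls, with 1009 to 1157, below all *ram1* controls (1365 to 1453). Annexin 1 supplied 52.7% ± 3.63 of the annexin reads in *ram1* mycorrhizal roots and 51.5% ± 2.14 in *ram1* controls, but 21.7% ± 1.44 in wild-type mycorrhizal roots and 39.5% ± 2.02 in wild-type controls. Annexin 4 supplied 5.28% ± 1.28 in *ram1* mycorrhizal roots, 7.39% ± 1.78 in *ram1* controls, 22.7% ± 0.47 in wild-type mycorrhizal roots and 10.2% ± 3.01 in wild-type controls. Annexin 2 kept a similar share, at 24.8% ± 0.75 in *ram1* mycorrhizal roots, 25.9% ± 1.95 in *ram1* controls, 25.7% ± 1.22 in wild-type mycorrhizal roots and 24.5% ± 1.61 in wild-type controls.

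**Figure D2:**
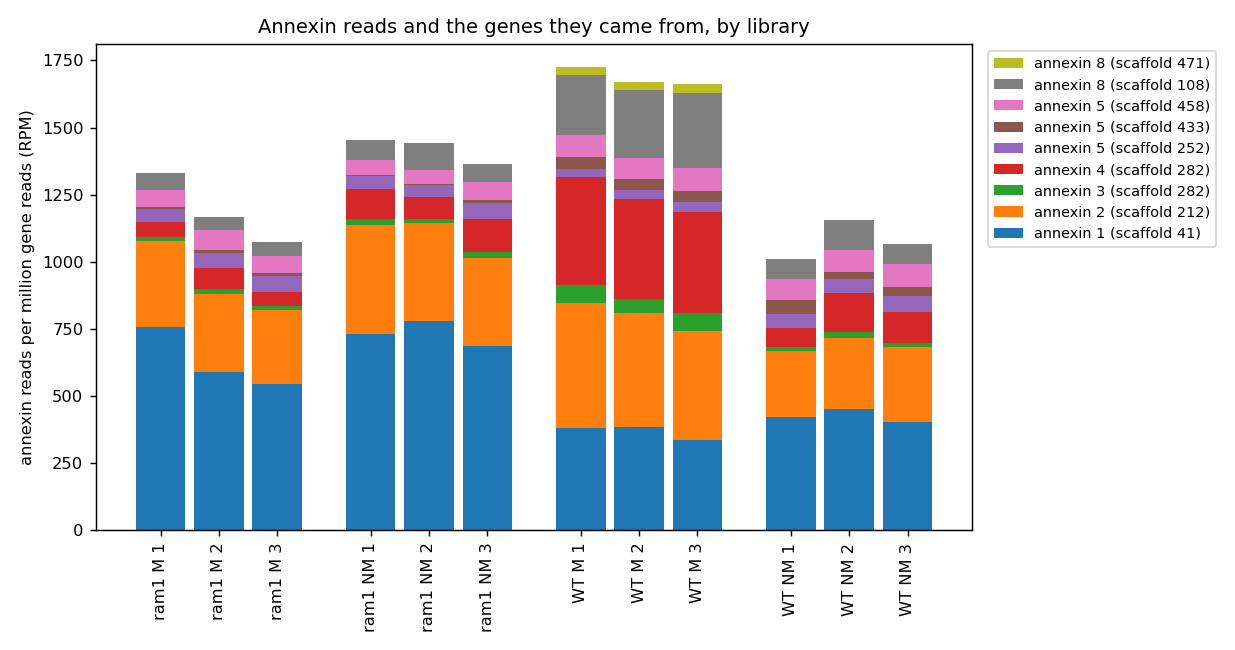
Annexin reads per 1000000 gene reads (RPM) in each of the 12 libraries, stacked by gene; the height of a bar is the sum over the 9 annexins. The 3 WT M bars reach 1663 to 1725 RPM, and the segments of annexin 4 and of annexin 8 of scaffold 108 are larger in them than in the other 9 bars.

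In the wild type, the fungus was associated with higher levels of annexins 2, 3 and 4 and of both annexin 8 genes, and with a lower level of annexin 5 of scaffold 252. A gene was called where its adjusted p in edgeR's quasi-likelihood test, corrected after Benjamini and Hochberg over all genes tested, was below 0.05. Of the 9 annexins, 6 were called, 5 higher and 1 lower in wild-type mycorrhizal than in wild-type control roots. Of all genes tested, 21.7% were called in this comparison, 12.6% higher and 9.14% lower. Of the 8 annexins that passed the read minimum in all groups, 4 were higher and 1 lower, with a median log2 fold change of 0.46. The called rise was at least 2-fold in 4 of the 9 annexins, against 5.88% of all genes tested. CPM of the groups did not overlap for 7 annexins, against 42.3% of all genes, and the median log2 fold change was 0.72 over the 9 annexins and -0.002 over all genes. Annexin 8 of scaffold 471, which passed the read minimum only in the mycorrhizal groups, is among both the 4 and the 7. In roots with many cell types, fewer cells of a type and less RNA per cell cannot be told apart in any of these values.

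Annexin 8 of scaffold 471 showed the highest fold change among the annexins. It had 31.3, 29.8 and 34.9 CPM in wild-type mycorrhizal replicates 1, 2 and 3, against 0.569, 0.251 and 0.548 CPM in the wild-type controls. In reads, these were 340, 356 and 457 against 7, 3 and 7. All mycorrhizal libraries were high and the groups lay far apart. The log2 fold change was 6.09 ± 0.38 (SE, edgeR quasi-likelihood, adjusted p = 7.23e-07), which ranked 288 from the top among all genes tested. This gene passed the read minimum only in the mycorrhizal groups, so a higher level there was in part a condition of its inclusion. Annexin 8 of Arabidopsis is known for a role in tolerance of salt and dehydration.

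The other annexin 8, on scaffold 108, was already well expressed without the fungus. It had 227.7, 260.2 and 269.7 CPM in wild-type mycorrhizal roots, against 74.1, 114.1 and 76.0 CPM in wild-type controls. Control replicate 2 was the highest of its group, and still below all mycorrhizal libraries. The log2 fold change was 1.52 ± 0.20 (SE, edgeR quasi-likelihood, adjusted p = 0.000274).

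The neighbouring annexin 3 and annexin 4 genes both rose with the fungus. Annexin 3 had 67.3, 54.3 and 64.8 CPM in wild-type mycorrhizal roots, against 13.0, 19.7 and 17.1 CPM in wild-type controls, with a log2 fold change of 1.90 ± 0.19 (edgeR quasi-likelihood, adjusted p = 4.21e-05). Annexin 4, which in Arabidopsis acts with annexin 1 in drought and salt responses, had 409.1, 380.7 and 364.2 CPM in wild-type mycorrhizal roots, against 69.7, 149.3 and 116.9 CPM in wild-type controls, with a log2 fold change of 1.78 ± 0.27 (edgeR quasi-likelihood, adjusted p = 0.00077). Neither gene overlapped between the groups. For both, control replicate 1 was the lowest and control replicate 2 the highest of its group. Within a library, the RPKM of annexin 4 was 3.37 to 4.10 times that of annexin 3 in *ram1* mycorrhizal roots, 4.62 to 5.28 times in *ram1* controls, 5.39 to 6.72 times in wild-type mycorrhizal roots and 5.14 to 7.27 times in wild-type controls.

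Annexin 2 rose less. It had 475.5, 434.4 and 397.7 CPM in wild-type mycorrhizal roots, against 247.4, 266.7 and 281.2 CPM in wild-type controls, and the groups did not overlap. The log2 fold change was 0.72 ± 0.12 (edgeR quasi-likelihood, adjusted p = 0.00134).

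The annexin that fell was annexin 5 of scaffold 252. Its level was 33.6, 33.1 and 37.9 CPM in wild-type mycorrhizal roots, against 55.0, 51.2 and 59.8 CPM in wild-type controls, without overlap. The log2 fold change was -0.67 ± 0.12 (edgeR quasi-likelihood, adjusted p = 0.00205). In Arabidopsis, annexin 5 is known mainly from pollen development.

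The remaining 3 annexins were not called. Annexin 1 had 388.5, 389.9 and 324.6 CPM in wild-type mycorrhizal roots, against 421.5, 455.1 and 407.1 CPM in wild-type controls. These groups did not overlap, but the log2 fold change of -0.22 ± 0.14 had an adjusted p of 0.293 (edgeR quasi-likelihood). The annexin 5 genes of scaffold 433 (log2 fold change 0.20 ± 0.27, adjusted p = 0.655, edgeR quasi-likelihood) and of scaffold 458 (-0.01 ± 0.11, adjusted p = 0.962) overlapped between mycorrhizal and control roots.

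**Figure D3:**
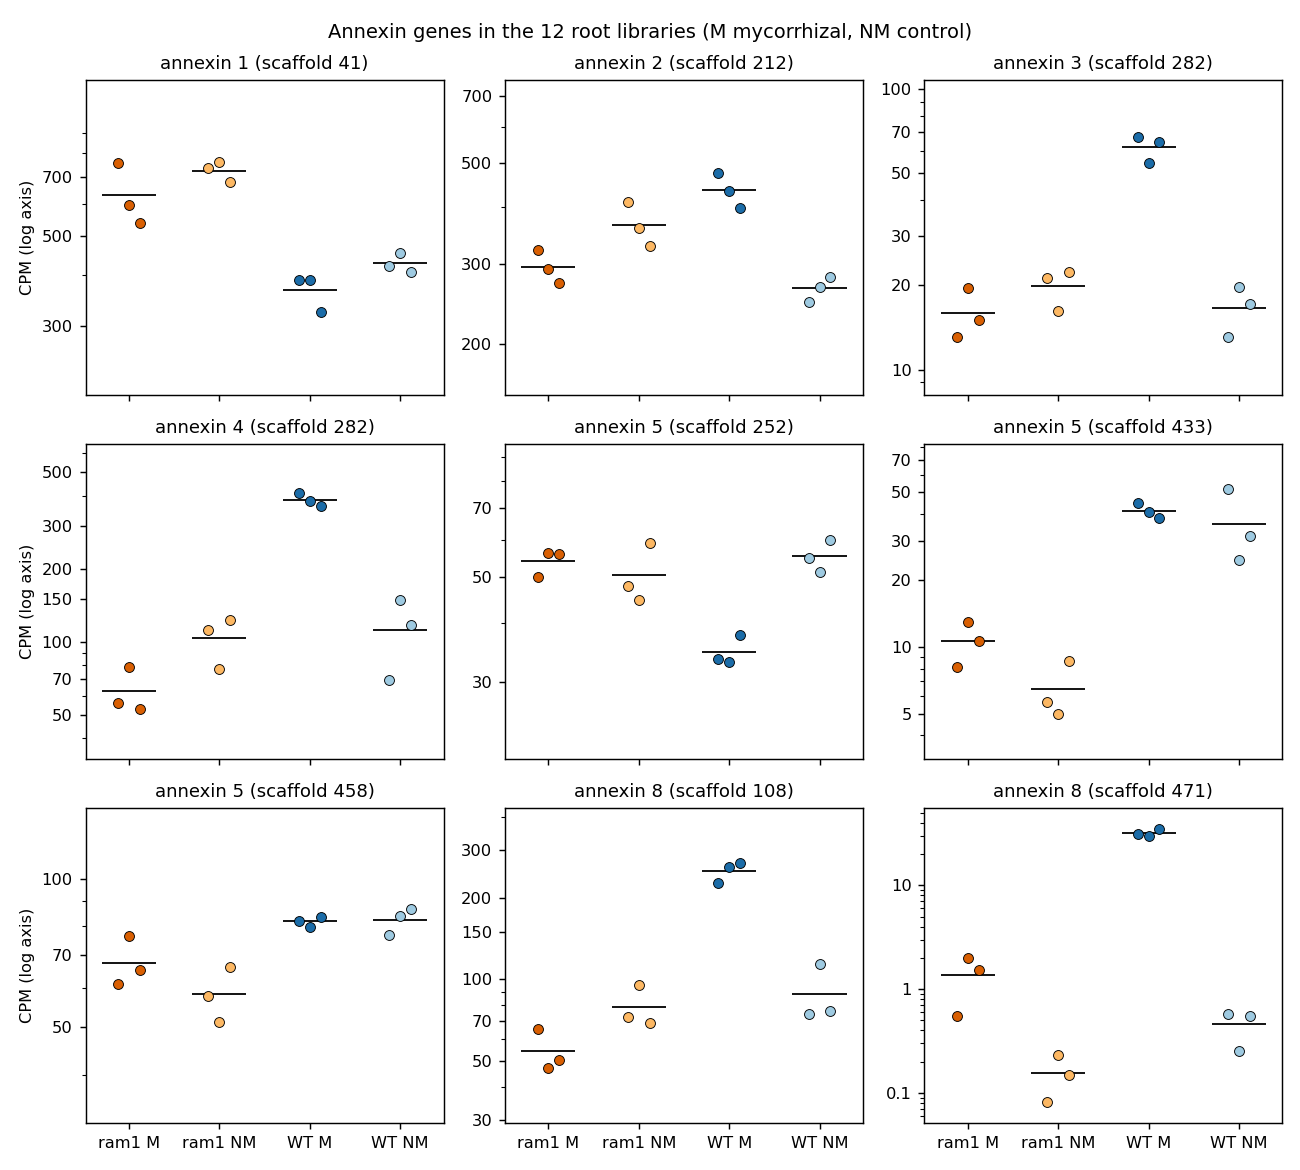
CPM of each annexin in the 12 libraries, on a log axis with its own range in each panel. Points are libraries and lines are means of 3 replicates of *ram1* mycorrhizal (ram1 M), *ram1* control (ram1 NM), wild-type mycorrhizal (WT M) and wild-type control (WT NM) roots. For annexins 3 and 4 and both annexin 8 genes the 3 WT M points lie above the other 9, for annexin 5 of scaffold 252 they lie below, and for annexin 1 and annexin 5 of scaffold 433 the genotypes separate.

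In *ram1*, annexin 8 of scaffold 471 was the only one of the 9 annexins called between mycorrhizal and control roots, and it was higher with the fungus. Of all genes tested, 10.1% were called, 4.91% higher and 5.17% lower. This annexin passed the read minimum only in the mycorrhizal groups. Of the 8 annexins that passed it in all groups, 0 were called higher and 0 lower. Annexin 8 of scaffold 471 had 0.545, 1.98 and 1.54 CPM in *ram1* mycorrhizal roots, against 0.0821, 0.231 and 0.148 CPM in *ram1* controls. In reads, these were 7, 14 and 17 against 1, 3 and 2. All *ram1* mycorrhizal libraries were above all *ram1* controls, yet far below the wild-type mycorrhizal ones. The log2 fold change was 2.96 ± 0.55 (SE, edgeR quasi-likelihood, adjusted p = 0.012). The call was lost without *ram1* mycorrhizal replicate 3 (adjusted p = 0.0517), without *ram1* control replicate 1 (0.0507) and when the model held only the 6 libraries of *ram1* (0.0764).

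The other annexins that rose in the wild type had negative values in *ram1*, none of them called. Annexin 4 had 55.9, 79.1 and 52.7 CPM in *ram1* mycorrhizal roots, against 111.5, 77.6 and 122.6 CPM in *ram1* controls, with an overlap of replicate 2 of the groups and a log2 fold change of -0.73 ± 0.26 (edgeR quasi-likelihood, adjusted p = 0.0953). Annexin 8 of scaffold 108 had 65.4, 47.0 and 50.3 CPM in *ram1* mycorrhizal roots, against 72.6, 95.3 and 68.9 CPM in *ram1* controls, without overlap (log2 fold change -0.54 ± 0.20, adjusted p = 0.0964). Annexin 2 had 321.8, 292.6 and 272.1 CPM in *ram1* mycorrhizal roots, against 409.7, 358.8 and 328.6 CPM in *ram1* controls, also without overlap (-0.31 ± 0.12, adjusted p = 0.11). Annexin 3 overlapped, with 13.1, 19.5 and 15.0 CPM in *ram1* mycorrhizal roots, against 21.2, 16.1 and 22.3 CPM in *ram1* controls (-0.33 ± 0.19, adjusted p = 0.271).

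The annexin 5 genes of scaffolds 433 (0.70 ± 0.30, adjusted p = 0.143), 458 (0.21 ± 0.11, adjusted p = 0.233) and 252 (0.10 ± 0.12, adjusted p = 0.606) had positive log2 fold changes in *ram1*, none past the edgeR quasi-likelihood test, and annexin 1 had -0.20 ± 0.14 (adjusted p = 0.354). The gene of scaffold 252 had 50.03, 56.2 and 56.1 CPM in *ram1* mycorrhizal roots, against 47.9, 44.8 and 59.1 CPM in *ram1* controls, of which replicate 3 was above all others. In all, 3 of the 9 annexins did not overlap between *ram1* mycorrhizal and *ram1* control roots, against 30.5% of all genes. The median log2 fold change was -0.20 over the 9 annexins, -0.25 over the 8 that passed the read minimum in all groups and 0.05 over all genes. Without wild-type control replicate 1, annexin 4 was called in addition as lower (adjusted p = 0.0404), and without *ram1* mycorrhizal replicate 1, annexin 8 of scaffold 108 (0.0478). DESeq2 called 3 annexins, with annexins 2 and 4 as lower, beside 16.1% of all genes tested. *ram1* control replicate 3 and *ram1* mycorrhizal replicate 1 were left out together after seeing that they stood apart from their replicates over all genes. In that fit 24.8% of all genes tested and 5 annexins were called. The called annexins included annexin 8 of scaffold 108 and annexin 2 as lower (-0.79 and -0.45) and annexin 5 of scaffolds 433 and 458 as higher (1.14 and 0.38).

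The response to the fungus differed between the genotypes for 6 of the 9 annexins, by a test of the interaction (response in *ram1* minus response in the wild type). It was lower in *ram1* for 5 and higher for 1. Of all genes tested, 9.19% were called, 4.03% higher and 5.17% lower, and the median was -1.02 over the 9 annexins and 0.006 over all genes. Over the 8 annexins that passed the read minimum in all groups, 1 was called higher and 4 lower, and the median was -0.50. The differences in log2 fold change were -2.51 ± 0.38 for annexin 4 (edgeR quasi-likelihood, adjusted p = 0.00271), -2.24 ± 0.27 for annexin 3 (0.000737), -2.06 ± 0.28 for annexin 8 of scaffold 108 (0.00138) and -1.02 ± 0.17 for annexin 2 (0.00433). Annexin 5 of scaffold 252, the one that fell in the wild type, had a difference of 0.76 ± 0.16 (0.0166). For these 5 genes the call was made under all 22 alternatives computed.

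Annexin 8 of scaffold 471 was a weaker case. Its difference of -3.14 ± 0.88 was the largest in size, but rested on few reads in the controls and on an adjusted p of 0.0485 (edgeR quasi-likelihood). It was lost in 12 of 22 alternatives, with adjusted p values up to 0.208. Among these were 10 of the 12 that leave out a single library, all but those without *ram1* mycorrhizal replicate 1 or 2. The difference stayed between -3.46 and -2.70 throughout.

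For annexin 1 (0.02 ± 0.19, adjusted p = 0.975) and for annexin 5 of scaffolds 433 (0.51 ± 0.40, 0.454) and 458 (0.22 ± 0.16, 0.407), the interaction did not pass the edgeR quasi-likelihood test.

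**Figure D4:**
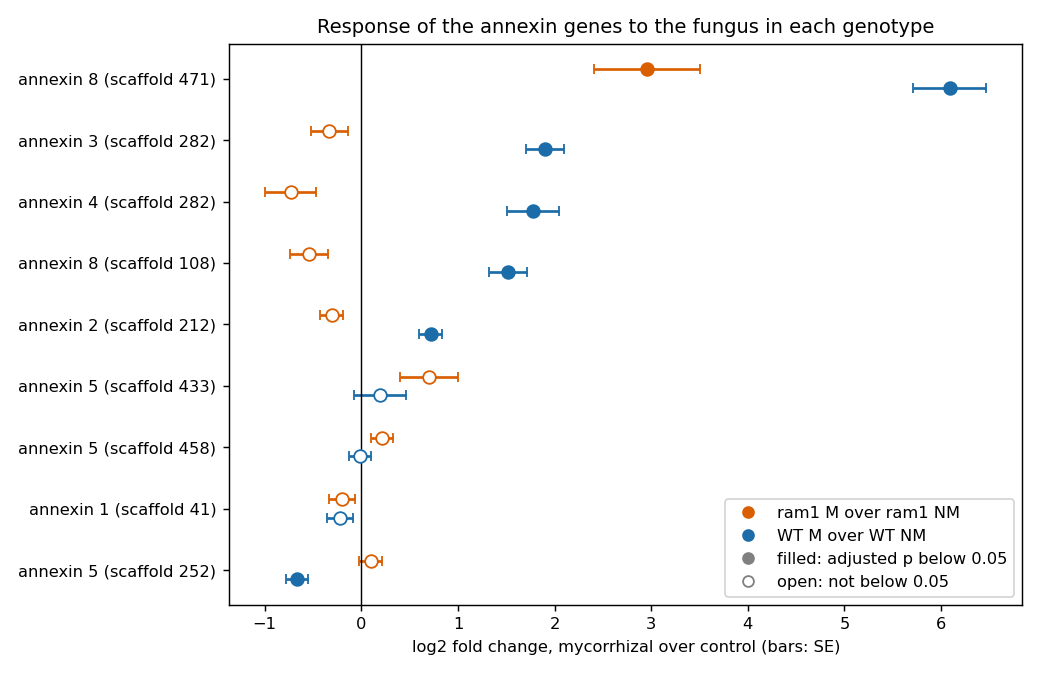
Log2 fold change between mycorrhizal and control roots of each annexin in *ram1* (orange) and the wild type (blue), with bars of 1 SE and filled points where the adjusted p was below 0.05. The 2 annexin 8 genes and annexins 2, 3 and 4 lie further right in the wild type. Among the *ram1* points, that of annexin 8 of scaffold 471, at 2.96, is the filled one.

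Between mycorrhizal roots of both genotypes, 8 of the 9 annexins differed, 2 higher and 6 lower in *ram1*. This comparison called 52.7% of all genes tested, 26.7% higher and 25.9% lower. CPM did not overlap for all 9 annexins, against 61% of all genes, and the median log2 fold change was -1.97 over the 9 annexins and 0.01 over all genes. Over the 8 annexins that passed the read minimum in all groups, 2 were called higher and 5 lower, and the median was -1.27. Relative to wild-type mycorrhizal roots, the mean CPM in *ram1* mycorrhizal roots was 4.23% for annexin 8 of scaffold 471, 16.3% for annexin 4, 21.5% for annexin 8 of scaffold 108, 25.5% for annexin 3, 25.7% for annexin 5 of scaffold 433 and 67.8% for annexin 2. Their log2 fold changes ranged between -4.64 ± 0.34 (annexin 8 of scaffold 471, edgeR quasi-likelihood, adjusted p = 1.7e-06) and -0.56 ± 0.12 (annexin 2, adjusted p = 0.00226). The 2 that were higher were annexin 1, at 171.8% of the wild-type level (0.78 ± 0.14, adjusted p = 0.000806), and annexin 5 of scaffold 252, at 155.1% (0.63 ± 0.12, adjusted p = 0.00107).

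The third gene of this name, annexin 5 of scaffold 458, had 61.1, 76.4 and 65.1 CPM in *ram1* mycorrhizal roots, against 82.0, 79.8 and 83.8 CPM in wild-type mycorrhizal roots. The groups did not overlap, and the log2 fold change of -0.28 ± 0.11 missed the threshold with an adjusted p of 0.0569 (edgeR quasi-likelihood). It was called in 11 of 23 alternatives, DESeq2 and limma among them.

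Control roots of the genotypes differed for 4 of the 9 annexins, 2 higher and 2 lower in *ram1*. This share of 44.4% was near the 36.3% of all genes tested that were called, 18.8% higher and 17.5% lower. CPM did not overlap for 5 annexins, against 47.6% of all genes, and the median log2 fold change was -0.13 over the annexins and 0.02 over all genes. Over the 8 annexins that passed the read minimum in all groups, 2 were called higher and 2 lower, and the median was -0.12.

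Annexin 1 was higher in *ram1* with and without the fungus. It had 759.1, 596.2 and 539.1 CPM in *ram1* mycorrhizal roots and 734.9, 759.3 and 680.1 CPM in *ram1* controls, against 324.6 to 389.9 CPM in wild-type mycorrhizal and 407.1 to 455.1 CPM in wild-type control roots. All *ram1* libraries were above all wild-type ones. In controls the log2 fold change was 0.76 ± 0.14 (edgeR quasi-likelihood, adjusted p = 0.00142).

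The opposite was seen for annexin 5 of scaffold 433. It had 8.17, 13.0 and 10.7 CPM in *ram1* mycorrhizal roots and 5.66, 5.01 and 8.68 CPM in *ram1* controls, against 44.8, 40.9 and 38.3 CPM in wild-type mycorrhizal roots and 51.7, 24.7 and 31.8 CPM in wild-type controls. All *ram1* libraries were below all wild-type ones. The log2 fold change was -2.48 ± 0.29 in control roots (edgeR quasi-likelihood, adjusted p = 7.89e-05) and -1.97 ± 0.29 in mycorrhizal roots (adjusted p = 0.000222).

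Annexin 2 was higher in *ram1* controls than in wild-type controls (0.46 ± 0.12, edgeR quasi-likelihood, adjusted p = 0.00964), a call that was lost without wild-type control replicate 1 (adjusted p = 0.0504). In mycorrhizal roots it was lower in *ram1*, as given above. Annexin 5 of scaffold 458 was lower in *ram1* controls, with 57.7, 51.2 and 66.0 CPM, against 76.8, 83.9 and 86.9 CPM in wild-type controls (-0.50 ± 0.11, adjusted p = 0.00503). Annexin 8 of scaffold 471 did not overlap between the controls, but its log2 fold change of -1.50 ± 0.63 did not pass (adjusted p = 0.0868) and rested on 6 reads in *ram1* controls and 17 reads in wild-type controls. For annexin 3 (0.26 ± 0.19), annexin 4 (-0.11 ± 0.26), annexin 8 of scaffold 108 (-0.16 ± 0.19) and annexin 5 of scaffold 252 (-0.13 ± 0.12) the control groups overlapped, with adjusted p values between 0.325 and 0.781.

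The 5 annexins below the minimum had few reads. No read of annexin 5 of scaffold 337 was found among the 142496135 gene reads of the 12 libraries, which allows up to 0.0211 RPM (3 counts, counting error only). The study counted both reads of an intact pair. The counting limits given here take reads as independent and are therefore too narrow. The annexin 2 gene of scaffold 295 had 6 reads, and the annexin 3 gene of scaffold 1260 had 25, of which 1 fell in *ram1* mycorrhizal roots, 5 in *ram1* controls, 13 in wild-type mycorrhizal roots and 6 in wild-type controls. The annexin 4 gene of the same scaffold had 17 reads, of which 0 fell in *ram1* mycorrhizal roots, 1 in *ram1* controls, 15 in wild-type mycorrhizal roots and 1 in wild-type controls. For the wild type this is a ratio of 15.5, with an exact 95% counting interval between 2.38 and 651.3 that leaves out the variation between replicates. The annexin 3 gene of this scaffold had a wild-type ratio of 2.2, with an interval between 0.79 and 7.17 that includes 1. A short gene model of 366 bases on scaffold 458 (Peaxi162Scf00458g00025.1), also named annexin 5, had 53 reads, of which 64.2% were unique. Its wild-type ratio was 1.51, with an interval between 0.75 and 3.1 that also includes 1.

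Other genes of calcium and membrane function changed in both directions between wild-type mycorrhizal and control roots, in lists that are read beside the 12.6% higher and 9.14% lower of all genes. Of 56 C2-domain proteins tested, which also bind membranes in dependence on calcium, 9 were higher and 8 lower. Of 12 phospholipases D, 3 were higher and 2 lower, and of 42 genes for calcium-permeable channels and related proteins, 4 were higher and 7 lower. The 23 calcium pumps and exchangers had 1 higher and 1 lower, and of the 9 NADPH oxidases, which form reactive oxygen species at the plasma membrane, 1 was lower. In *ram1*, 1 C2-domain protein was higher and 3 were lower in mycorrhizal than in control roots, 1 phospholipase D was higher and 2 were lower, 1 channel was higher and 1 lower, and 1 pump or exchanger and 4 NADPH oxidases were lower, beside 4.91% higher and 5.17% lower of all genes. The interaction was called higher for 4 and lower for 6 C2-domain proteins, higher for 1 and lower for 3 phospholipases D, higher for 2 and lower for 2 channels, and higher for 1 pump or exchanger, beside 4.03% higher and 5.17% lower of all genes. For the NADPH oxidases it was called for 0 of 9 genes by edgeR, and 2 of them had an unadjusted p below 0.05.

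A few members of these lists had larger folds than most annexins. A C2-domain protein (Peaxi162Scf00064g00735.1) had 0.427 ± 0.323 CPM in *ram1* mycorrhizal roots, 0.695 ± 0.599 CPM in *ram1* controls, 20.4 ± 2.32 CPM in wild-type mycorrhizal roots and 0.381 ± 0.136 CPM in wild-type controls. A channel-like protein of the ERD family (Peaxi162Scf00783g00336.1) had 11.6 ± 3.63, 3.67 ± 0.90, 68.0 ± 3.62 and 0.514 ± 0.050 CPM in the same order of groups. Both passed the edgeR quasi-likelihood test in the wild type (log2 fold change 5.71, adjusted p = 1.28e-05, and 7.02, adjusted p = 3.48e-08) and for the interaction (-6.27, adjusted p = 0.00101, and -5.37, adjusted p = 1.5e-05). A gene for phospholipase D alpha 1 (Peaxi162Scf00620g00714.1), which cleaves membrane phospholipids, had 160.1 ± 36.1, 103.6 ± 30.5, 315.9 ± 23.4 and 54.2 ± 1.77 CPM. Another gene of this name (Peaxi162Scf00174g00101.1) had 12.8 ± 1.40, 14.1 ± 3.18, 27.7 ± 0.90 and 5.19 ± 0.46 CPM. Both passed the edgeR quasi-likelihood test in the wild type (2.54, adjusted p = 7.85e-06, and 2.41, adjusted p = 2.09e-06). They also passed it for the interaction (-1.92, adjusted p = 0.00269, and -2.55, adjusted p = 0.000105). Phospholipase D P1 (Peaxi162Scf00037g01718.1) had 1089 ± 207, 954.9 ± 296.1, 101.1 ± 39.7 and 930.9 ± 268.7 CPM, and fell in the wild type (-3.20, adjusted p = 9.33e-05).

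The genes whose log2 CPM followed those of an annexin most closely over the 12 libraries were looked up among 15622 described genes, as a description only, since the libraries share their groups. For annexin 8 of scaffold 471, these were a gene of unknown function with a DUF538 domain (Pearson r = 0.99), a jasmonate ZIM-domain gene (0.99) and a glutathione S-transferase (0.99). For annexin 8 of scaffold 108, a galactosyltransferase (0.98), a plastid dicarboxylate transporter (0.98) and a nicotinate phosphoribosyltransferase (0.97) were closest. For annexin 3, they were a protein kinase (0.97), a kiwellin (0.97) and a DHHC-type zinc finger protein (0.97), and for annexin 4 a pair of sulfotransferase genes (0.97 each) and a FKBP-type peptidyl-prolyl isomerase (0.97).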

How the data were processed

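Per the labels and the table headers, the authors trimmed paired-end reads, aligned them to *P. axillaris* transcripts in the CLC Genomics Workbench, and deposited total and unique gene reads, counts of aligned reads for each gene model and library without normalization. The deposited RPKM equalled total gene reads scaled to gene length and library total (largest difference 1.53e-07). Columns with group means and the authors' own comparisons by Baggerly's test were not used. Total gene reads were scaled with TMM, and genes with a mean of at least 10 reads in 1 group were fitted in 1 quasi-likelihood model of the 4 groups (edgeR 4.0.16, R 4.3.3), with Benjamini-Hochberg adjustment over all genes and a threshold of 0.05. The SE is the log2 fold change divided by the square root of F. The prior count for log2 CPM was 2, and CPM are unlogged TMM-scaled values. Alternatives used DESeq2 1.42.0, limma 3.58.1, other scalings, filters, unique reads, a replicate block and left-out libraries. The code was tested on simulated data.

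The members and gene lists were chosen with earlier results of these data known. From the phospholipases D, 2 patatin-like genes matched by their wording were removed after their values were seen. All 9 annexins are named. Of each list, genes came from the 3 with the smallest p in the wild type or for the interaction. For annexins at least 2-fold changed in the wild type, the 3 described genes with a group mean of at least 100 reads and the highest Pearson r are given. Library totals of 7152267 to 13391147 reads limit precision mainly for annexin 8 of scaffold 471. Gene models hold coding lengths. Sequences were not used here.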

Additional observations from a re-analysis of the deposited data

Results flagged for a closer look

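For 6 annexins the response to the fungus, mycorrhizal over control, differed between *ram1* and the wild type by the interaction term of the edgeR quasi-likelihood model. The difference in log2 fold change, *ram1* minus wild type, was -2.06 for annexin 8 of scaffold 108 (adjusted p = 0.00138), -1.02 for annexin 2 (0.00433), 0.762 for annexin 5 of scaffold 252 (0.0166), -2.24 for annexin 3 (0.000737), -2.51 for annexin 4 (0.00271) and -3.14 for annexin 8 of scaffold 471 (0.0485). Annexin 8 of scaffold 471 passed the read minimum only in the mycorrhizal groups. Its call was lost in 12 of 22 alternatives, with adjusted p values up to 0.208. The 9 differences of log2 CPM between mycorrhizal and control libraries of *ram1* did not overlap with those of the wild type for any of the 6 genes. These differences pair the same libraries that the test used, 3 in each group, and add no separate support. The share of all genes without such an overlap was not computed.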

How the results depend on the processing

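The numbers of annexins called were 6 under all 23 alternatives in the wild type, 5 to 6 for the interaction, 8 to 9 between mycorrhizal roots and 3 to 5 between control roots. The share of all genes called was 15% to 25.6% in the wild type and 5.44% to 18.5% for the interaction. Between mycorrhizal roots it was 42.3% to 54.4%, and between control roots 29.1% to 38.3%. Of the annexin counts, only that in *ram1*, 1 in the reported fit (10.1% of all genes), moved by more. It was 3 with DESeq2 (16.1%), 0 with the libraries of the comparison only (1.81%) and 0 to 2 when a single library was left out (2.45% to 17.1%). Without *ram1* control replicate 3 and *ram1* mycorrhizal replicate 1 together, an alternative added after seeing the data, it was 5 (24.8%). The causes were not tested. With the replicate block, which no label supports (correlation of same-numbered samples -0.0836 to 0.0365 in the wild type and -0.194 to 0.36 in *ram1*), 6 annexins were called in the wild type, 1 in *ram1* and 5 for the interaction, where annexin 8 of scaffold 471 had -3.15 (adjusted p = 0.0677). Of 1026 gene values computed under alternatives, 979 kept direction and call, 16 lost a call, 20 gained one and 11 changed sign. All that changed sign were uncalled: annexin 1, interaction, at -0.00669 with filterByExpr, -0.178 without the 2 libraries named above and -0.134 to 0.1 without single libraries; and, without single libraries, annexin 8 of scaffold 108 (-0.316 to 0.0539) and annexin 4 (-0.379 to 0.132) between controls, and annexin 5 of scaffolds 433 (-0.0242 to 0.536) and 458 (-0.0727 to 0.00558) in the wild type. Annexins took 1734 RPM in wild-type mycorrhizal roots with unique reads, against 1686 RPM with total reads. The order of RPKM did not move with TMM sizes. Depth limited annexin 8 of scaffold 471 most, with 1 to 7 reads in each control library.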
